A study of Mus musculus with 6 samples.

Results

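Metallothioneins and 2 genes of the zinc response are described here in mouse ventricles after repeated fast pacing of the heart. The 5 genes are the metallothioneins Mt1, Mt2 and Mt3, the transcription factor Mtf1 and the zinc exporter Slc30a1, taken by symbol from the 24239 rows of the deposited FPKM table. They were chosen by name, with their FPKM values in the comparison of paced with sham mice already known, so that this comparison is given for them as a description, without a p-value. FPKM, fragments per kilobase of transcript scaled to library size, is the level used throughout.

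Ventricles came from male C57BL/6 mice aged 8 to 10 weeks, with 3 mice after an 8 day course of atrial pacing and 3 after a sham intervention without pacing. The paced hearts were driven from a bipolar catheter in the esophagus, next to the atria. The cycle length went from 120 ms for 3 min down to 80 ms for 45 min and back to 120 ms for 3 min, daily for 5 days and, once 2 days without pacing had passed, for 3 days more. The labels name no transgene, and the tissue was whole ventricle, with all of its cell types. In such bulk tissue, fewer cells of a type and less RNA per cell cannot be told apart.

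Metallothioneins are small cysteine-rich proteins that bind zinc and copper and buffer the pool of free metal in the cell. When free zinc rises, it binds the zinc finger factor MTF1, which then binds metal response elements in the promoters of Mt1, Mt2 and Slc30a1. Mt1 and Mt2 are also induced by glucocorticoids, by interleukin-6 through STAT3 and by oxidants, whereas Mt3 is known mainly from brain. Slc30a1 encodes ZnT1, which moves zinc out of the cell across the plasma membrane.

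The 250 bases before the RefSeq start site of 4 of the genes are shown because they hold the known binding motif of MTF1 in different numbers. All are on the plus strand of GRCm38.p6, the assembly also called mm10. Mt1 is shown from chr8:94178839-94179088, Mt2 from chr8:94172368-94172617, Mt3 from chr8:94152357-94152606 and Slc30a1 from chr1:191906531-191906780. Capitals mark each match to the core of the metal response element, searched as TGCACNC or TGCGCNC on both strands.
Mt1: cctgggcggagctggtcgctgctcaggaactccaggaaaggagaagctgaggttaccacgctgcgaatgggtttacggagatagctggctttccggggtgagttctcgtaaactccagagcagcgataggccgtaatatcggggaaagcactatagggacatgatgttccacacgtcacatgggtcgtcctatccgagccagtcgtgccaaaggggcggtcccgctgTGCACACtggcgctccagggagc
Mt2: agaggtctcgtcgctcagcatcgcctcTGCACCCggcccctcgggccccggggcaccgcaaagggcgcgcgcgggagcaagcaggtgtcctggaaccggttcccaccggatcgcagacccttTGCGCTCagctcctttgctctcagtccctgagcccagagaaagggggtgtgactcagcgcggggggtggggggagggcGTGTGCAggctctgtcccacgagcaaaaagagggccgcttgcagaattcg
Mt3: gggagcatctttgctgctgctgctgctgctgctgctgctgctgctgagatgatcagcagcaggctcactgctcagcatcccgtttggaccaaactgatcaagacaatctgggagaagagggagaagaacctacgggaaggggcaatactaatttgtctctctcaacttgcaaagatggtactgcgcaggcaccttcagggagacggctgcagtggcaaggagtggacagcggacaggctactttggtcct
Slc30a1: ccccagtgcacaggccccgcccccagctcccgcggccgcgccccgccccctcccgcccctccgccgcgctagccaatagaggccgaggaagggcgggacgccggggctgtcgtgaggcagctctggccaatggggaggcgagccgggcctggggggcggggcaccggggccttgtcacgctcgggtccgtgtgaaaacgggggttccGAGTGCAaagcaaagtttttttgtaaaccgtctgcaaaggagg

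Mt2 held 3 matches in these 250 bases, which 1.26% of 32851 RefSeq promoters of the same length did with 3 or more. Mt1 and Slc30a1 held 1 match each, as 21.4% of promoters did with 1 or more, while Mt3 and Mtf1 held 0. The Mt1 match ran from 23 to 17 bases before the start. The matches of Mt2 began 223, 128 and 50 bases before its start, and the last of them lay on the minus strand. The count depends on where the start is placed, so it does not rank these promoters. With 50 bases after the start added, Mt2 had 4 matches, Mt1 3, Slc30a1 2, Mt3 1 and Mtf1 0. For Mt1, 2 of the 3 lay after the listed start. In that longer window 1.97% of promoters had 3 or more. Mt2 and Slc30a1 also held 1 match each to the core of the antioxidant response element, searched as TGACNNNGC on both strands, which 10.2% of promoters held. These are matches of letters, and binding was not measured.

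The libraries differed in depth and in tissue content. Effective depth, read from the steps of the lowest values, was 6242000 to 8861000 fragments. Cardiomyocyte markers, 6 genes, were high in all 6 mice. They summed to 62648 to 82281 FPKM in sham and to 59394 to 61886 FPKM in paced mice. Every paced sum lay below every sham sum, though Myh6, Tnnt2, Tnni3 and Myl3 each overlapped between the groups. Atrial markers varied widely, from 424 to 12627 in sham and from 5714 to 14615 in paced mice. Lung epithelial markers summed to 0.249 to 4.52 in sham mice, to 1.91 in pacing 1, to 303 in pacing 2 and to 1688 in pacing 3. Adipoq, a fat marker, ran from 1.94 to 27.0 FPKM over the sham mice, with sham 1 highest, and from 28.6 to 72.8 FPKM over the paced mice. Markers of liver, a main site of metallothionein synthesis, were near 0, with 3 of 5 at the lowest listed value in every mouse and none reaching an FPKM of 1.

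Mt2 was higher in every paced ventricle than in any sham ventricle, Mt1 was higher on average with overlap, and Mt3, Mtf1 and Slc30a1 overlapped between the groups. All 5 genes passed the filter, a mean FPKM of at least 1. Of them 1, Mt2, had no overlap in the higher direction, where 6.24% of the 11994 genes tested did, and 0 had none in the lower direction, where 6.97% did. No gene of the 5 passed an adjusted p under 0.05 in limma, where 0% of all genes tested passed in either direction. At an unadjusted p under 0.05 limma had 1 of the 5, and over all genes 5.17% were higher and 3.69% lower, or 620 and 442 genes. That split became 968 and 148 genes with values rescaled to the same sum, 514 and 609 centred on medians, and 537 and 581 after quantile normalization. The median log2 fold change of the 5 was 0.28, and that of all genes tested was -0.01. The members were picked with this comparison in view, and nothing is read from these counts. Each log2 fold change is the paced mean less the sham mean of log2(FPKM + 1), which understates the difference of low genes, with its SE from limma over all genes. Values after ± are SDs over 3 mice.

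**Figure D1:**
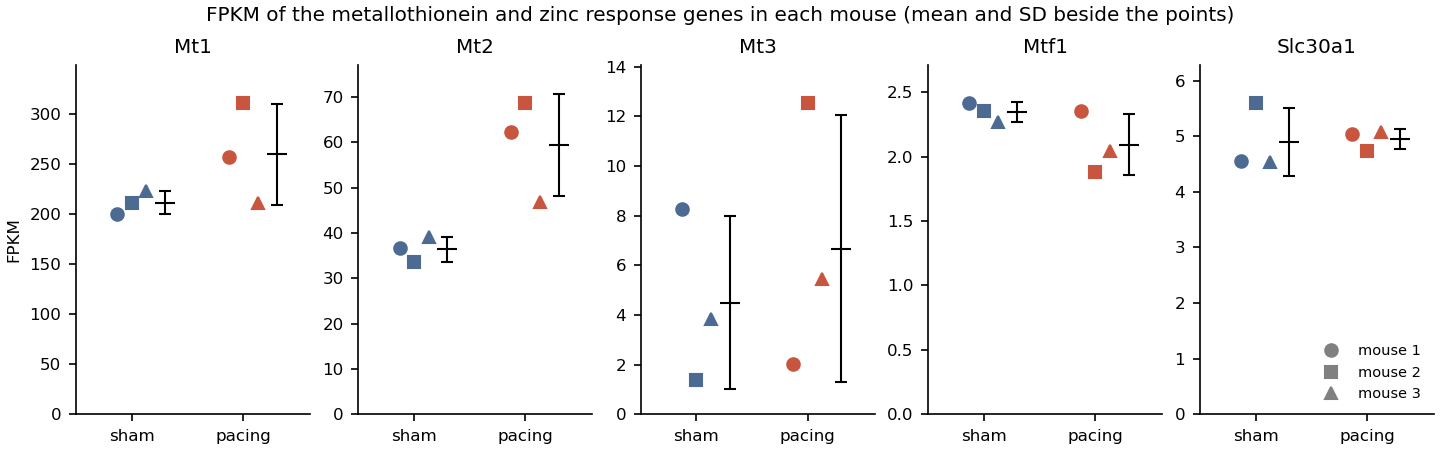
FPKM of Mt1, Mt2, Mt3, Mtf1 and Slc30a1 in 3 sham and 3 paced mice, on linear axes from 0, with the mean and SD of each group beside the points and the symbol giving the replicate number. Mt2 separates the groups, with 46.9 the lowest paced and 39.1 the highest sham value, while the other genes overlap.

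Mt2 encodes metallothionein 2, an inducible isoform made in most tissues. It lies on chromosome 8 from 94172618 to 94173567 in mm10, with 3 exons. It stood at 36.7, 33.5 and 39.1 FPKM in sham 1, 2 and 3 and at 62.4, 68.8 and 46.9 FPKM in pacing 1, 2 and 3. The sham mice lay within a narrow band, and pacing 3 was the paced mouse closest to it. The means were 36.4 ± 2.77 and 59.4 ± 11.2 FPKM, a ratio of 1.63 and a log2 fold change of 0.67 (SE 0.14). About 86 to 187 fragments per mouse lay behind these levels, for a coefficient of variation from counting of 7.31% to 10.8%. The authors' deposited table called Mt2 higher, with a log2 fold change of 0.70 and a q-value of 0.003275, the lowest in that table and shared by 180 rows. That table called 1.23% of its 24341 rows higher. Mt2 was the only one of the 5 genes with a call there.

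Markers of tissues and cell types stood beside the Mt2 levels as follows. In pacing 1, where lung markers summed to 1.91, Mt2 stood at 62.4 FPKM, and without pacing 2 and pacing 3 the log2 fold change was 0.76 (SE 0.15), a value that rests on 1 paced mouse, assumed to vary like the sham mice. Sham 1, with a summed atrial level of 12627, had an Mt2 level between those of the other sham mice. The part of lung and of atrial tissue in the Mt2 result was not tested beyond these values. Red cell markers were higher in each paced mouse (summed FPKM 117 to 200.4) than in each sham mouse (57.8 to 85.7). The sum of the 6 cardiomyocyte markers was lower in each paced mouse (59394 to 61886 FPKM) than in each sham mouse (62648 to 82281 FPKM). Singly, Actc1 (5272 to 6724 against 7527 to 7976) and Myl2 (25481 to 26627 against 26899 to 39377) were lower in each paced mouse. Myh6, Tnnt2, Tnni3 and Myl3 overlapped between the groups. The part of red cells and of cardiomyocytes in the Mt2 result was not tested. Of 6 fat markers, 3 were higher in each paced than in each sham mouse. Adipoq ran from 1.94 to 27.0 FPKM in sham and from 28.6 to 72.8 FPKM in paced mice, Cidec from 0.934 to 13.4 and from 18.0 to 42.9, and Lep from 0.103 to 0.328 and from 0.918 to 1.34. The other 3, Plin1, Retn and Fabp4, overlapped, and so did the sum of the 6, which is mostly Fabp4, at 1585 to 1771 FPKM in sham and 1563 to 2098 FPKM in paced mice. In the paced mice Adipoq was highest in pacing 1 and Mt2 in pacing 2, and the part of fat in the Mt2 result was not tested. An antisense gene of the GENCODE annotation, Gm45774, overlaps Mt2 and has no row of its own. How the counting treated strand is not given in the sources used here, so reads of that gene cannot be told apart from those of Mt2.

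Mt1 encodes metallothionein 1, the most abundant of the metallothioneins in these hearts and an inducible isoform like Mt2. It lies 5521 bases downstream of Mt2, on chromosome 8 from 94179089 to 94180327, with 3 exons. Its level was above that of 96.7% of the genes tested, against 86.2% for Mt2. It stood at 200.05, 211 and 223 FPKM in sham 1, 2 and 3 and at 257, 311 and 211 FPKM in pacing 1, 2 and 3. Pacing 1 and pacing 2 lay above all sham mice, and pacing 3 lay among them. The means were 211 ± 11.6 and 259.7 ± 50.3 FPKM, a ratio of 1.23 and a log2 fold change of 0.28 (SE 0.13). Without pacing 2 it was 0.14 and without pacing 3 it was 0.42, so that 1 mouse moved it by more than 1.5 times in either direction. At about 545 to 938 fragments per mouse, counting error gives a coefficient of variation of only 3.27% to 4.28%. The SD of the paced mice was 19.4% of their mean, well above that error. The authors' deposited table gave a log2 fold change of 0.29 and a q-value of 0.318, with no call.

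Mt1 and Mt2 ranked the paced mice alike, with pacing 2 highest, then pacing 1, then pacing 3. In the sham mice both were highest in sham 3. Mt1 was the larger of the pair in every mouse, but by less in the paced ones. The ratio of Mt1 to Mt2 was 5.45, 6.29 and 5.71 in sham 1, 2 and 3 and 4.12, 4.53 and 4.49 in pacing 1, 2 and 3. Every paced ratio lay below every sham ratio, with means of 5.82 ± 0.434 and 4.38 ± 0.227. On the log2 scale the difference of the means was -0.41. Since the levels of both genes in this comparison were known when they were chosen, this ratio is a description too, given without a test. The paced mice spread less in the ratio than in either level. The summed level of Mt1, Mt2 and Mt3 was 252 ± 11.9 FPKM in sham and 326 ± 64.8 FPKM in paced mice, of which Mt2 made up 14.4% ± 0.712 and 18.3% ± 1.02.

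**Figure D2:**
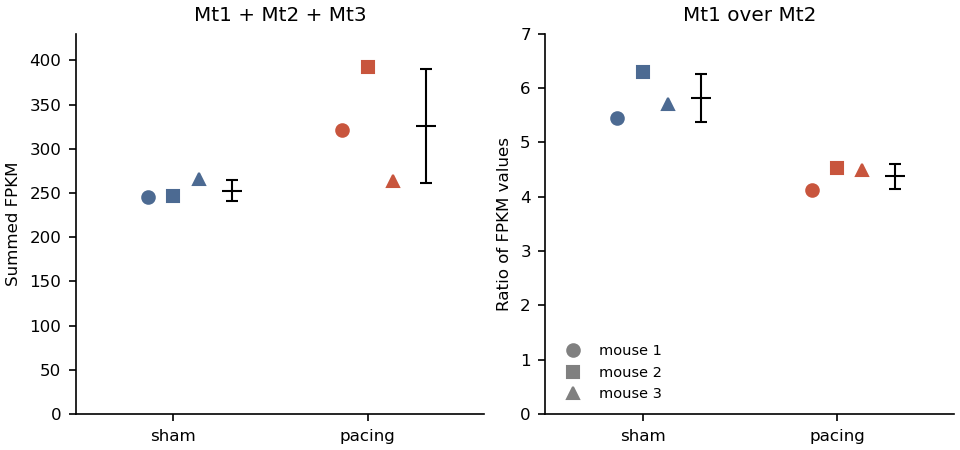
Summed FPKM of Mt1, Mt2 and Mt3 (left) and the ratio of Mt1 to Mt2 (right) in 3 sham and 3 paced mice, on linear axes from 0, with the mean and SD of each group beside the points. The sum overlaps at pacing 3, whose 263 FPKM lies below the 266 FPKM of sham 3, while the ratio separates the groups, at 4.53 or less in paced and 5.45 or more in sham mice.

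Mt3 encodes metallothionein 3, a neuronal isoform also called growth inhibitory factor. It lies on chromosome 8 from 94152607 to 94154148, with 3 exons, upstream of Mt2. It stood at 8.25, 1.37 and 3.84 FPKM in sham 1, 2 and 3 and at 2.00, 12.5 and 5.44 FPKM in pacing 1, 2 and 3. The highest mouse had 9.18 times the level of the lowest, and high and low values occurred in both groups. The means were 4.49 ± 3.49 and 6.66 ± 5.38 FPKM, with a log2 fold change of 0.43 (SE 0.59). Only about 4 fragments lay behind the value of sham 2 (95% Poisson interval 1.09 to 10.2) and about 37 behind that of pacing 2 (26.1 to 51.0). These intervals, which cover counting error only, do not overlap. The direction of the group difference rested on single mice, at -0.06 without sham 2 and -0.11 without pacing 2, and at 0.92 without sham 1 and 0.98 without pacing 1. The authors' deposited table gave a log2 fold change of 0.57 and a q-value of 0.824.

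The mice that were high in Mt3 were high in 4 of 5 atrial markers, Myl7, Myl4, Sln and Nppa, but not in the fifth, Bmp10. The atrial myosin light chain gene Myl7 was measured at 2699.6, 31.4 and 966 FPKM in sham 1, 2 and 3 and at 1141, 3520.1 and 2358 FPKM in pacing 1, 2 and 3. Both genes were highest in pacing 2, then sham 1, then pacing 3, and both were lowest in sham 2. Bmp10, an atrial growth factor, stood at 67.8, 0.220 and 38.6 FPKM in sham 1, 2 and 3 and at 38.1, 16.8 and 28.7 FPKM in pacing 1, 2 and 3. It was also lowest in sham 2, but pacing 2, with the highest Mt3, had less of it than every mouse other than sham 2. Over the 6 mice, the correlation of Mt3 with the mean log2 level of all 5 atrial markers, Bmp10 included, was r = 0.76 (exact permutation p = 0.0292) and rho = 0.89 (exact permutation p = 0.0333). Without sham 1 and sham 2, the mice farthest from the median atrial level, r was 0.85. The permutations took no account of group, and the values of Mt3 were known when it was chosen. The adjusted p over the 70 relations computed, of the 5 genes with 14 marker and gene lists, was 0.523 for r and 0.583 for rho, so that this relation did not pass the correction. Hamp, the iron hormone hepcidin, took a similar course, at 68.4, 0.558 and 34.6 FPKM in sham and 36.5, 66.2 and 73.4 FPKM in paced mice, and was picked out after its values were seen. Markers of neurons and Schwann cells summed to only 3.68 to 6.26 FPKM in sham and 6.64 to 9.74 FPKM in paced mice. The part of atrial tissue and of these cells in the Mt3 values was not tested.

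**Figure D3:**
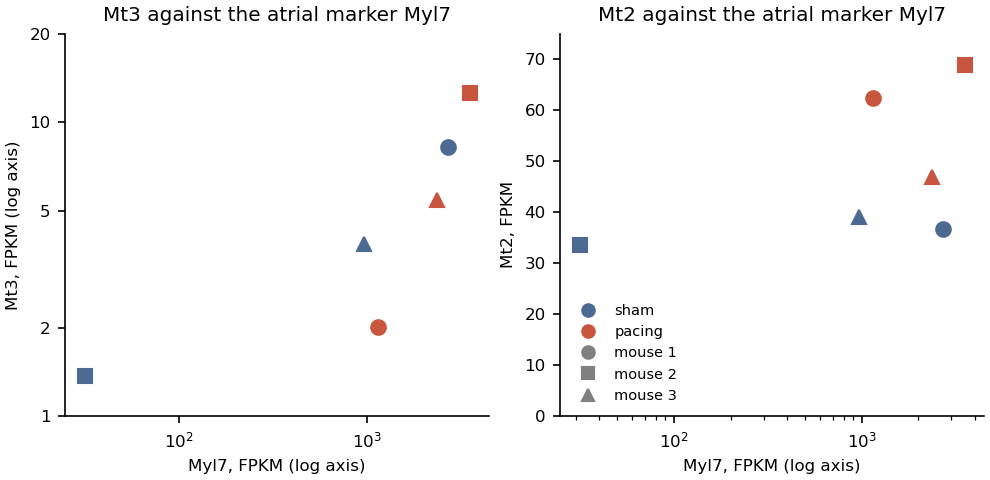
Mt3 (left, log axis) and Mt2 (right, linear axis) against the atrial marker Myl7 (log axis), all in FPKM, with 1 point per mouse, the color giving the group and the symbol the replicate number. Mt3 goes from 1.37 to 12.5 with Myl7, and the Mt2 level of sham 1, with a Myl7 level of 2699.6, is 36.7; the part of atrial tissue in either gene was not tested.

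Mtf1 encodes the zinc sensor that drives Mt1 and Mt2. Its row covers chromosome 4 from 124802549 to 124850730, with 11 exons in its main transcript. It stood at 2.42, 2.36 and 2.27 FPKM in sham 1, 2 and 3 and at 2.35, 1.88 and 2.04 FPKM in pacing 1, 2 and 3. Pacing 2 and pacing 3 lay below the sham mice, and pacing 1 lay among them. The means were 2.35 ± 0.0776 and 2.09 ± 0.238 FPKM, with a log2 fold change of -0.12 (SE 0.12) and, without pacing 2 and pacing 3, of 0.0020. The mouse with the highest Mt1, Mt2 and Mt3, pacing 2, had the lowest Mtf1. About 106 to 141 fragments per mouse lay behind these values. The 3′ end of Mtf1 overlaps 1110065P20Rik on the opposite strand, which stood at 19.5 to 26.9 FPKM. With the strand setting unknown, reads of that gene cannot be told apart from those of Mtf1 there. The end of the row also overlaps Yrdc on the same strand, at 8.28 to 11.5 FPKM, which no strand setting would separate there.

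Slc30a1, the ZnT1 exporter and a known target of MTF1, showed the smallest group difference of the 5 genes. Its row covers chromosome 1 from 191894072 to 191913247, which includes a locus on the opposite strand, 1700034H15Rik, with no more than 0.0906 FPKM in any mouse. The gene has 2 exons, and its RefSeq start lies inside that row. It stood at 4.55, 5.60 and 4.54 FPKM in sham 1, 2 and 3 and at 5.03, 4.74 and 5.08 FPKM in pacing 1, 2 and 3. The paced mice lay between the lowest and the highest sham mouse. The means were 4.90 ± 0.611 and 4.95 ± 0.184 FPKM, with a log2 fold change of 0.02 (SE 0.11). Centred on medians or quantile normalized, that difference took the opposite sign, at -0.01 in each case, as it did without sham 1 (-0.02) and without sham 3 (-0.03). About 144 to 229 fragments per mouse lay behind these values, for a counting coefficient of variation of 6.61% to 8.33%. Ranked per length, the order of the mean levels was Mt1, Mt2, Mt3, Slc30a1 and Mtf1, of which Mt3 and Slc30a1 did not differ beyond the spread of Mt3.

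The metallothionein genes lie side by side on chromosome 8, within 43.1 kb from Mt4 to Mt1. Mt4, the isoform of stratified epithelia, was listed at 0.01, the lowest value in the table, in all 6 mice. Within 200 kb of the cluster 6 other genes were tested, of which 5 had a positive and 1 a negative log2 fold change, and limma called 0. Their log2 fold changes ran from -0.11 for Nup93, a nuclear pore gene and the next gene downstream, to 0.58 for Gnao1, a G protein subunit. In 0 of the 6 did every paced mouse lie above every sham mouse. Bbs2, the next gene upstream, stood at 7.10 ± 0.584 FPKM in sham and 7.22 ± 0.570 FPKM in paced mice.

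The other zinc transporters gave no call. Transporters of the Slc30a family move zinc out of the cytosol, and those of the Slc39a family move it in. Of 9 further Slc30a genes 5 were tested, with 2 positive and 3 negative log2 fold changes, a median of -0.05 and 0 called by limma. Slc30a9, a zinc transporter of mitochondria, stood at 48.9, 57.8 and 52.6 FPKM in sham 1, 2 and 3 and at 42.3, 43.4 and 46.5 FPKM in pacing 1, 2 and 3. Every paced value was below every sham value, and the log2 fold change was -0.26 (SE 0.09, limma adjusted p = 0.484). On the other side Slc30a7, a transporter of the early secretory pathway, stood at 2.63 ± 0.149 and 2.78 ± 0.118 FPKM.

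Of 14 Slc39a genes 10 were tested, with 7 positive and 3 negative log2 fold changes, a median of 0.07 and 0 called by limma. Slc39a8, the importer ZIP8, stood at 3.74, 1.71 and 2.78 FPKM in sham 1, 2 and 3 and at 3.08, 4.81 and 6.35 FPKM in pacing 1, 2 and 3, for a log2 fold change of 0.61 (SE 0.25) and a limma adjusted p of 0.553. Its groups overlapped, and its order in the paced mice was that of the lung markers, whose part was not tested. Slc39a6 and Slc39a11 were the 2 importers with every paced mouse above every sham mouse. Slc39a6 stood at 1.52 ± 0.249 and 2.04 ± 0.114 FPKM, and Slc39a11 at 1.66 ± 0.137 and 1.90 ± 0.0482 FPKM. Slc39a9 had the smallest p among the negative ones, at 7.68 ± 0.272 and 7.39 ± 0.605 FPKM.

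Further genes reported as targets of MTF1 also gave no call. Of 8 such genes 7 were tested, of which 6 had a positive and 1 a negative log2 fold change, with a median of 0.15. Gclc, the catalytic subunit of the rate-limiting enzyme of glutathione synthesis, stood at 5.05 ± 0.277 and 5.72 ± 0.227 FPKM, with every paced mouse above every sham mouse. Csrp1, a LIM domain protein, had the smallest p at 48.2 ± 11.6 and 58.7 ± 4.89 FPKM (limma adjusted p = 0.643). Slc40a1, the iron exporter ferroportin, stood at 12.1 ± 0.648 and 11.8 ± 1.74 FPKM.

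Copper handling genes were split in direction. Of 12 genes 11 were tested, with 5 positive and 6 negative log2 fold changes, a median of -0.01 and 0 called by limma. Ccs, the copper chaperone that loads the superoxide dismutase Sod1, stood at 18.4, 17.4 and 23.9 FPKM in sham 1, 2 and 3 and at 24.7, 25.7 and 26.3 FPKM in pacing 1, 2 and 3. Its log2 fold change was 0.36 (SE 0.12), with a limma adjusted p of 0.483. The paced mice lay close together above the sham mice. Slc31a2, a copper transporter, had no overlap in the same direction, at 17.6 ± 1.19 and 20.1 ± 0.819 FPKM. The main copper importer, Slc31a1, and Sco1, a copper chaperone of cytochrome oxidase assembly, had none in the other direction, at 13.4 ± 0.268 and 12.2 ± 0.797 FPKM and at 6.50 ± 0.315 and 5.35 ± 0.406 FPKM.

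Genes induced by glucocorticoids and by interleukin-6, which also induce Mt1 and Mt2, had mostly positive log2 fold changes, without a call by limma. Over all genes tested 48.2% had a positive log2 fold change, and 6.24% had every paced mouse above every sham mouse. Of 12 glucocorticoid-induced genes, all tested, 10 had a positive log2 fold change and the median was 0.32, or 0.12 to 0.52 with 1 mouse left out in turn. In 4 of them, Tsc22d3, Cebpd, Nfkbia and Errfi1, every paced mouse lay above every sham mouse. Cebpd, a transcription factor, stood at 3.24, 4.36 and 4.34 FPKM in sham 1, 2 and 3 and at 5.61, 6.72 and 5.36 FPKM in pacing 1, 2 and 3, for a log2 fold change of 0.47 (SE 0.13) and a limma adjusted p of 0.412. It was highest in pacing 2, then pacing 1, then pacing 3, as Mt1 and Mt2 were. Fkbp5 and Zbtb16, picked out after their values were seen, took that order too. So did Pdk4 and Klf9, whose log2 fold changes were negative. The other genes of the list, Tsc22d3, Per1, Sgk1, Ddit4, Dusp1, Nfkbia and Errfi1, took other orders. All these orders were looked at after the values were seen. Fkbp5, a co-chaperone of the glucocorticoid receptor, stood at 6.20, 16.8 and 8.11 FPKM in sham 1, 2 and 3. In pacing 1, 2 and 3 it stood at 14.9, 24.5 and 7.97 FPKM. Sham 2, with the highest Fkbp5 of the sham mice, had the lowest Mt2 of all mice. The part of glucocorticoids in the Mt1 and Mt2 levels was not tested. On the negative side Pdk4, a brake on glucose oxidation, stood at 193 ± 26.5 and 182 ± 34.3 FPKM.

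Of 10 interleukin-6 and STAT3 response genes 8 were tested, all 8 had a positive log2 fold change, the median was 0.36, and limma called 0. In 5 of the 8, Socs3, Serpina3n, Lcn2, Saa3 and Junb, every paced mouse lay above every sham mouse. Saa3, at 0.152 ± 0.245 and 2.25 ± 1.62 FPKM, passed the filter only through its paced level. Il6 and Lif did not pass it. Il6 stood at 0.165 ± 0.169 FPKM in sham and at 0.01 in every paced mouse, and Lif at 0.113 ± 0.0640 and 0.146 ± 0.0461 FPKM. Serpina3n, an acute phase protease inhibitor, had the smallest p of the 8. It stood at 4.52 ± 0.937 and 13.6 ± 3.66 FPKM, for a log2 fold change of 1.39 (SE 0.19) and a limma adjusted p of 0.20. Its limma adjusted p was 0.0169 without sham 1, a setting in which limma called 99 genes higher and 1 lower over all genes tested. The cause of that change was not tested. Socs3, the feedback inhibitor that STAT3 induces, stood at 2.41 ± 0.296 and 3.71 ± 0.539 FPKM, and Lcn2, an iron-scavenging lipocalin, at 3.74 ± 1.09 and 8.55 ± 1.89 FPKM. Mt2 was chosen with its values known, and its groups do not overlap. For that reason no relation of this list to Mt2 over the 6 mice is given.

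Oxidative stress genes showed small differences, with 6 of 7 tested log2 fold changes positive, a median of 0.05 and 0 called by limma. Hmox1, the heme-degrading oxygenase, stood at 7.57 ± 1.05 and 8.76 ± 1.89 FPKM. Gclm, the modifier subunit of the glutathione-synthesizing enzyme, stood at 11.1 ± 0.145 and 9.75 ± 0.392 FPKM, with every paced mouse below every sham mouse (limma adjusted p = 0.595). Over the 7 lists 60 genes were tested, of which 14 had every paced mouse above and 4 every paced mouse below every sham mouse, where 6.24% and 6.97% of all genes tested did. At an unadjusted p under 0.05, limma had 11 of the 60 higher and 2 lower, where it had 5.17% and 3.69% of all genes. These lists were put together with earlier results of the same mice known, so these counts are no independent evidence of a direction. Saa3, which is in both of the higher counts, passed the filter only through its paced level.

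**Figure D4:**
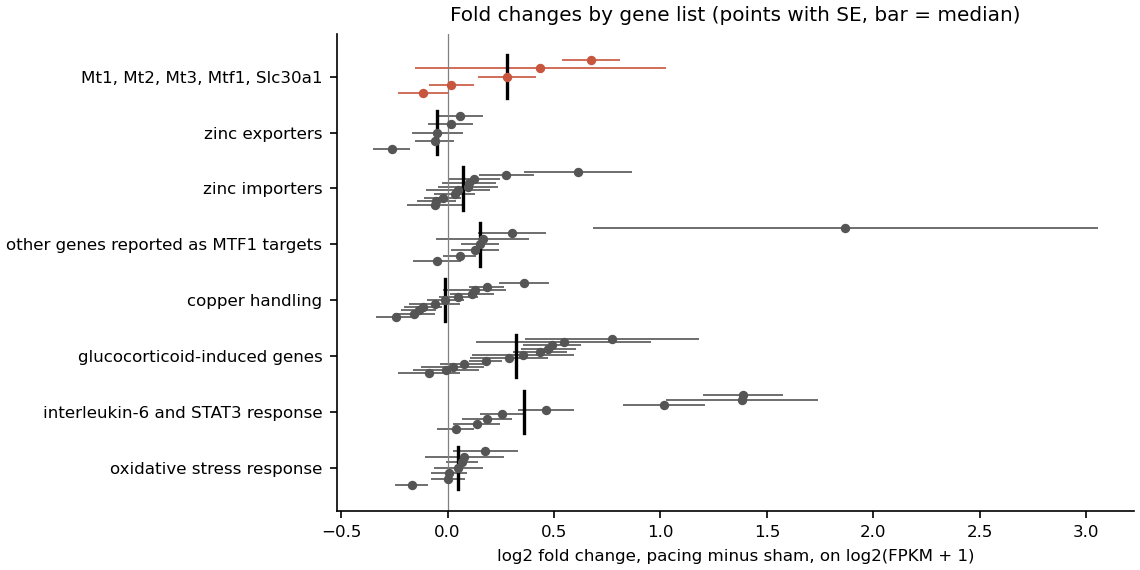
Log2 fold change, pacing minus sham on log2(FPKM + 1), of the 5 metallothionein and zinc genes and of each tested gene in the 7 metal and stress lists, with the SE of the limma fit, and a bar at each median. Zinc exporters and copper genes center near 0, at medians of -0.05 and -0.01, and the widest interval, of the MTF1 target Hamp, belongs to a gene that ran from 0.558 to 73.4 FPKM among the mice.

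The genes whose levels over the 6 mice were most like those of Mt2, by Pearson correlation of log2(FPKM + 1) among 11989 tested genes, were Pmm1 (r = 0.9975), Zmat3 (0.9965), Mllt1 (0.9915), Tmem234 (0.9844) and Zeb2os (0.9798). For Mt1 they were Tgds (r = 0.9893), Brf2 (0.9892), Pskh1 (0.9845), Aifm2 (0.9813) and Wdr45 (0.9812). The 2 sets share no gene. Mt1 itself ranked only 133 in likeness to Mt2 (r = 0.887), and Mt2 ranked 83 in likeness to Mt1. The log2 fold changes of all 10 genes, 0.12 to 0.32, were smaller than that of Mt2. Pmm1, a phosphomannomutase, stood at 21.4, 20.6 and 21.7 FPKM in sham 1, 2 and 3 and at 25.6, 26.4 and 22.8 FPKM in pacing 1, 2 and 3. Over 6 mice that share group and library, these correlations describe the pattern only.

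**Figure D5:**
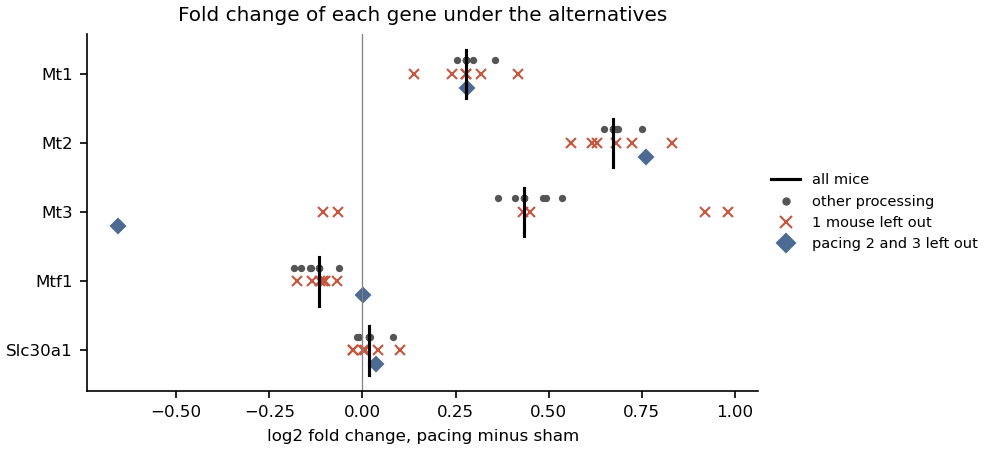
Log2 fold change, pacing minus sham, of Mt1, Mt2, Mt3, Mtf1 and Slc30a1 with all mice (bar), under other processing (dots), with 1 mouse left out (crosses) and with pacing 2 and 3 left out (diamond). Mt2 runs from 0.56 to 0.83 and Mt1 from 0.14 to 0.42, while Mt3 runs from -0.66 to 0.98 and so takes either sign.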

How the data were processed

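Stranded polyA libraries of ventricular RNA were read as 151 base pairs from each end, per the labels' protocols. The mm10 build and FastQC 1.0.0, Bowtie2 2.2.6, TopHat2 2.1.0, Cuffdiff and Cufflinks appear in the submitters' processing notes. For the annotation and the strand setting, the entry is: not given in the sources used here. Per the file headers, the authors deposited FPKM per gene and mouse, with 0.01 as the lowest value, and a comparison table with an FPKM per group, a log2 fold change and a q-value.

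The test was limma 3.58.1 in R 4.3.3 on log2(FPKM + 1), two-sided, with eBayes trend and Benjamini-Hochberg adjustment, over the 11994 genes whose mean FPKM reached 1. Cacna2d1, with a failed estimate, was left out. The p-values measure the spread between mice, which the design describes as 3 per group. The fit was tested on 20 simulated data sets, in which it recovered 84.6% of differences of log2 1 and 97.8% of log2 2. It made 9.25 false calls per simulation. The simulated levels were raised by 3 on the log2 scale, so that genes as low as Mt3 and Mtf1 were not covered. No count model was used, as FPKM is no count. Starts in the table count from 0 and were raised by 1.

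Depth was read from 616 genes of 1 exon, whose low values were whole multiples of 1 fragment, within 0.05, in 97.0% to 100% of cases, with lengths shortened by 158 bases. Fragments per gene, from GENCODE transcript lengths, are approximate. The members and lists were chosen with earlier results of these data known. The tested gene of smallest p in each direction of each list was named, besides genes whose groups did not overlap and those said to be picked after their values were seen. Alternatives changed the pseudocount, filter, scaling, trend, replicate block and mice used.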

Additional observations from a re-analysis of the deposited data

How the results depend on the processing

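Across the 16 alternatives of the gene fit, none of the 5 genes passed an adjusted p under 0.05, and Mt1 and Mt2 kept a positive log2 fold change. Of 278 recomputed values, those of the Mt1 to Mt2 ratio included, 267 counted as unchanged. Unchanged meant within the spread between mice for fold changes, within 1.5 times for counts and of the same sign for the ratio. Filters, trend and replicate block cannot change the log2 fold change of a gene, so this count overstates stability. The count of genes called higher, 0 with all mice, became 6 with no filter on low values and 7 with a replicate block, and that of list genes called higher became 1, Serpina3n, with the block. With 1 mouse left out in turn, genes called higher ran from 0 to 99, the highest without sham 1, with 7 without pacing 1 and 1 without pacing 3, and genes called lower from 0 to 1. List genes called higher ran from 0 to 1. The log2 fold change ran from 0.14 to 0.42 for Mt1, 0.56 to 0.83 for Mt2, -0.11 to 0.98 for Mt3, -0.18 to -0.07 for Mtf1 and -0.03 to 0.10 for Slc30a1, and the log2 difference in the ratio of Mt1 to Mt2 from -0.46 to -0.35. Without pacing 2 and pacing 3 together it was -0.66 for Mt3 and 0.0020 for Mtf1, and the cause was not tested. Rescaling to the same sum moved the median of all genes to 0.06 and gave 0.36 for Mt1 and 0.75 for Mt2. The replicate numbers did not pair the mice: deviations of same-numbered mice correlated at -0.125, -0.0225 and -0.0201, and 0 of 6 mice correlated best with their own number. Depth limits Mt3 most, with counting coefficients of variation of 16.5% to 49.7%.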
